A study of Mus musculus with 19 samples.

Results

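Public T cell receptors, whose chains recur in different hosts, were compared with private ones among CD8 T cells that had entered A223 tumours. A beta chain counted as public if at least 2 of the 4 tumour libraries with receptor labels held 1 or more of its cells, and as private if all its cells lay in 1 library. Of 57 beta chains among the clonotypes named by the authors, 9 were public and 48 private. The public chains held 4393 and the private chains 4637 of the 9030 cells with a named clonotype, of 41099 cells in the whole study. The members were chosen by their cell numbers per library, so those numbers are given as a description, with no test. A223 is a squamous cell carcinoma model, C57BL/6-derived per the labels, that was injected into C57BL/6J mice. All groups share this tumour and host strain and differ in whether the tumour was labelled regressing or growing. CD8 T cells were sorted from digested tumours and read with the 5′ kit. The libraries are called Reg2 and Reg3 (regressing tumour, replicates 2 and 3) and Grow2 and Grow3 (growing tumour, replicates 2 and 3), and values without a name follow that order. How many mice stand behind a library was not found in the labels, so p-values measure only the spread between these libraries.

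Each T cell carries a receptor made of an alpha and a beta chain. Both are assembled by joining gene segments at random, with bases trimmed and added at the joins, and the joined stretch, the CDR3, contacts the peptide held by an MHC molecule. Most CDR3 sequences are rare, and public chains are known from sequences that can be made in many ways or from hosts that met the same antigen. Exhausted CD8 T cells met antigen for a long time and lost part of their function while carrying inhibitory receptors. The deposited table names a clonotype by its CDR3 chains, with the beta chain last. Public betas are numbered here from 1 to 9 by their total of cells, private betas likewise from 1 to 48, and the alpha chains of a beta carry letters.

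The libraries held 1296 to 4940 cells with a receptor label and 981 to 3852 cells with a named clonotype. Total UMIs, the counted RNA molecules, ran from 24580139 to 58661165 per library over all cells. Of 8985 cell barcodes of named cells, 45 occurred in 2 libraries, and none of these carried the same beta in both. No expression matrix was used here, so CD8 T cell markers could not be read, and cluster names are the authors'. Intervals are exact Clopper-Pearson 95% intervals and cover counting error only.

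Public chains held the minority of named cells in 3 tumours and most of them in Reg3. The public share of named cells was 33.1% (interval 31.3 to 34.9) in Reg2, 72.7% (71.2 to 74.1) in Reg3, 26.8% (24.7 to 29.1) in Grow2 and 31.2% (28.3 to 34.2) in Grow3. In Reg3, public beta 1 alone made up 84.8% of the public cells. Without the largest public beta of each library, the public shares of the remaining named cells were 21.4%, 28.8%, 17.9% and 7.79%. The mean share was 29.0% ± 3.07 in growing and 52.9% ± 28.0 in regressing tumours (SD, n = 2 each, two-sided exact permutation p = 0.33, the smallest that 2 libraries against 2 allow). The difference, growing minus regressing, was -23.8 percentage points with all betas, -1.93 without public beta 1 and -4.05 without Reg3. It turned to 12.2 with public status set at 5 or more cells in 2 libraries.

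The number of public chains varied less between tumours than their cells did. Public betas numbered 6 of 19 in Reg2, 4 of 13 in Reg3, 7 of 17 in Grow2 and 5 of 21 in Grow3. Pairs of libraries shared 2 to 5 betas. The 5 shared by Reg2 and Grow2 were 16.1% of the 31 betas found in either, and the 2 shared by Reg2 and Reg3 were 6.67% of 30.

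The 9 public chains were spread unevenly over the tumours. Public beta 2 was the only one with more than 20 cells in every library, at 384 in Reg2, 257 in Reg3, 81 in Grow2 and 47 in Grow3. Public beta 7 was also found in all 4, but with 6, 66, 9 and 1 cells. The other 7 were each found in 2 libraries. Public beta 3 had 100 cells in Reg2 and 249 in Grow3, and public beta 4 had 89 in Reg2 and 175 in Grow2. Public beta 6 was split almost evenly, at 102 cells in Reg3 and 96 in Grow2. Public beta 8, the only one seen in growing tumours alone, had 69 cells in Grow2 and 8 in Grow3. None was seen in regressing tumours alone.

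For 3 of the 9, public status rested on 1 cell in a second library. Public beta 1 had 2374 cells in Reg3 and 1 in Grow3. Public beta 5 had 225 cells in Reg2 and 1 in Grow2, and public beta 9 had 52 and 1 in the same libraries. Each of these 3 single cells carried a full clonotype name, alpha chain included, that was read in the other library, and none shared its barcode with a cell of the same beta. Only cells with a clonotype name were kept, so single cells of these betas with another alpha chain may have gone unnamed. The match of names is thus no separate support for sharing. The cell of public beta 9 in Grow2 shared its barcode with 1 cell of another library. The cell of public beta 1 had 6551 UMIs, against a median of 11867 over the named cells of Grow3, and lay in the Initial Activation cluster. The cells of public betas 5 and 9 had 8666 and 5404 UMIs, against a median of 7993 in Grow2, and lay in Activated Exhausted and Intermediate Activation. Just outside the rule stood the private chains, with 0 cells in every second library. Private beta 1 had 560 cells in Reg2 and 0 named cells elsewhere. A count of 0 was taken to allow up to 3 cells. By that limit, named cells of this chain were at most 0.0607%, 0.0944% and 0.231% of the labelled cells of Reg3, Grow2 and Grow3. Labelled cells without a clonotype name have no chain given, so the limit covers named cells alone and does not bound the chain among all labelled cells.

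Cells per beta, taken as clone size with all alpha chains of a beta pooled, overlapped widely between the classes. Public beta 2 in Reg2, for example, joined names of 199, 108 and 77 cells. The median public beta had 94.5, 179.5, 69 and 8 cells in the 4 libraries, and the median private beta 89, 98, 54.5 and 25. The smallest private beta had 44, 55, 25 and 13 cells. Below that size lay 1, 0, 3 and 3 public betas. The rule by which the authors named clonotypes was not found in the labels, and a chain with many cells in 1 tumour was also named at a few cells in another. The largest beta was private in Reg2 (private beta 1, 560 cells) and in Grow2 (private beta 2, 493 cells), and public in Reg3 and Grow3. The largest private betas of those last libraries were private beta 4 with 234 cells in Reg3 and private beta 7 with 154 in Grow3.

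**Figure D1:**
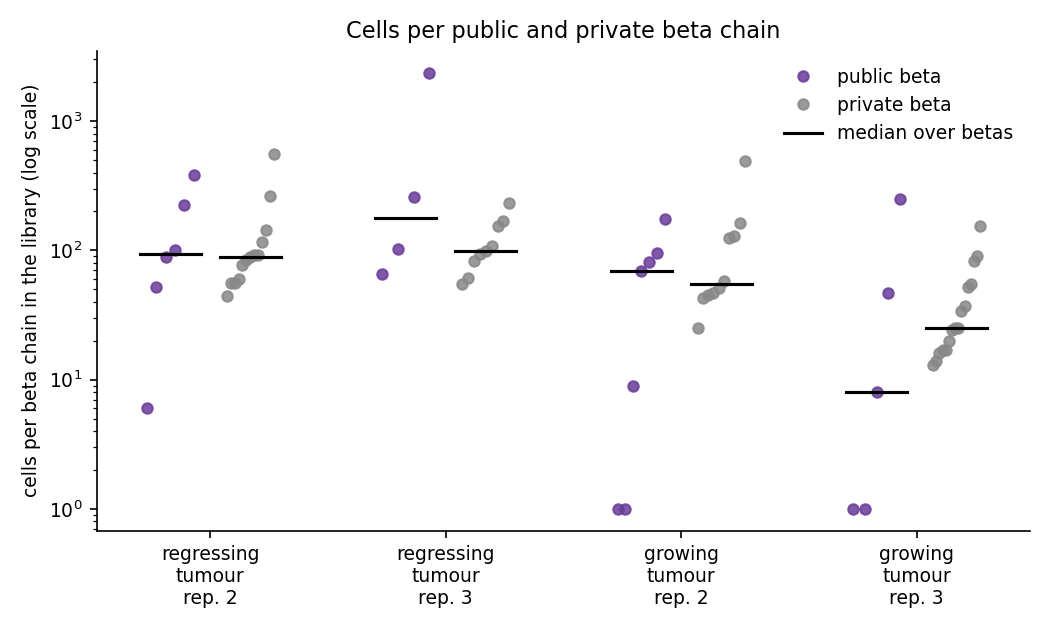
Cells per beta chain in each tumour library on a log scale, with 1 point for each public (purple) or private (grey) beta and a bar at the median. Public points span 1 to 2374 cells and private points 13 to 560, and the classes overlap in all 4 libraries.

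More alpha partners were read with public than with private chains, mainly through a few betas. Public betas carried 21 clonotype names and private betas 50. Of the 9 public betas, 5 were read with 2 or more alpha chains, up to 6, and of the 48 private betas 7 were, with at most 2. Alpha partners were counted over all cells and libraries of a beta, and cell numbers chose the members, so no test was made. By definition a public beta was read in 2 or more libraries and a private beta in 1. The median total was 226 cells for public and 60.5 for private betas. The part of these differences in the number of partners was not tested. Names with a second alpha chain, which a cell can carry because both alpha alleles may rearrange, occurred for 5 public (55.6%) and 7 private betas (14.6%). These were the same betas as those with 2 or more alpha chains. For the 7 private betas and public betas 6 and 7, a second alpha chain was read only in such names. Public betas 1, 2 and 4 were also read with different alpha chains in separate names.

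Of the public betas, 8 kept at least 1 identical alpha chain in different tumours, betas 1, 5 and 9 only through the single cells described above. Public beta 4 kept none. Its alpha chain in Reg2 was 1 residue from an alpha chain it had in Grow2, at the same length of 14 residues. The alpha chain of public beta 3, found in Reg2 and Grow3, was in turn 1 residue from both. These 3 chains and others shared their last 8 residues. That ending was carried by an alpha chain of 4 of the 9 public betas (44.4%), betas 1 to 4, and of 4 of the 48 private betas (8.33%). It was noticed in these data and gets no test.

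Public beta 2 had 6 alpha chains, lettered A to F by their cells, and all but D had this ending. Alpha A was paired with it in 3 libraries. It was the only alpha in 108 cells of Reg2, 7 of Reg3 and 81 of Grow2, and 77 cells of Reg3 carried both A and D. Alpha F, with 47 cells in Grow3, was 1 residue from alpha A. Alphas B and E, with 199 and 77 cells, were seen in Reg2 alone, and alpha C, with 129 cells, and D in Reg3 alone.

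Within a tumour, cells of public beta 2 with different alpha chains differed in the share of the Alternative Exhausted cluster. In Reg2 it held 16.9% of the cells with alpha E (interval 9.31 to 27.1), 4.63% with A (1.52 to 10.5) and 1.51% with B (0.312 to 4.34). In Reg3 it held 26.0% of the cells with A and D (16.6 to 37.2), 13.6% with D alone (5.17 to 27.4) and 1.55% with C (0.188 to 5.49). The interval of B lay below that of E, and the interval of C below that of A and D. Both exhausted clusters together separated the alpha chains less: they held 20.4% (A), 20.6% (B) and 32.5% (E) in Reg2, and 25% (D alone), 34.9% (C) and 45.5% (A and D) in Reg3, with intervals that overlapped within each library. Dividing cells made up 12.6% (B), 18.5% (A) and 24.7% (E) in Reg2 and, among the same 3 names of Reg3, 2.27% (D alone) to 4.65% (C). The 7 cells of Reg3 with A alone had 42.9% in Alternative Exhausted (9.90 to 81.6), 57.1% in both exhausted clusters and 0 dividing cells, and are too few to be ranked. All cells of a name in a library share that library, so these shares compare clones and not conditions.

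Public beta 1 also differed in state between its alpha partners within 1 tumour. All 3 of its alpha chains, lettered in a series of their own, had the ending described above. In Reg3, 64.0% of the 2137 cells with alpha A (interval 61.9 to 66.0) and 68.0% of the 153 cells with A and B (59.96 to 75.3) were in exhausted clusters. Of the 84 cells with alpha C, 36.9% were (26.6 to 48.1). This alpha C is the same chain as alpha C of public beta 2, and the cells of Reg3 that paired it with public beta 2 had 34.9% in exhausted clusters (26.7 to 43.8). Whether these 2 names divide the cells of 1 clone with both betas was not tested. Alternative Exhausted cells made up 39.4% with alpha A, against 8.33% and 1.55% with the shared alpha on public betas 1 and 2. Cells in the dividing clusters made up 13.1% with alpha A, against 4.76% and 4.65%. The authors' phase calls ran the other way for S, at 25.5% with alpha A against 45.2% and 38.8%. G1 calls made up 64.7% against 44.0% and 55.0%. Median UMIs were 9339 with A and B, 7848 with A alone and 5352 with C. Alpha B of public beta 1 is likewise alpha A of public beta 2, and was also read with private beta 17. The part of doublets in names of 3 chains was not tested.

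**Figure D2:**
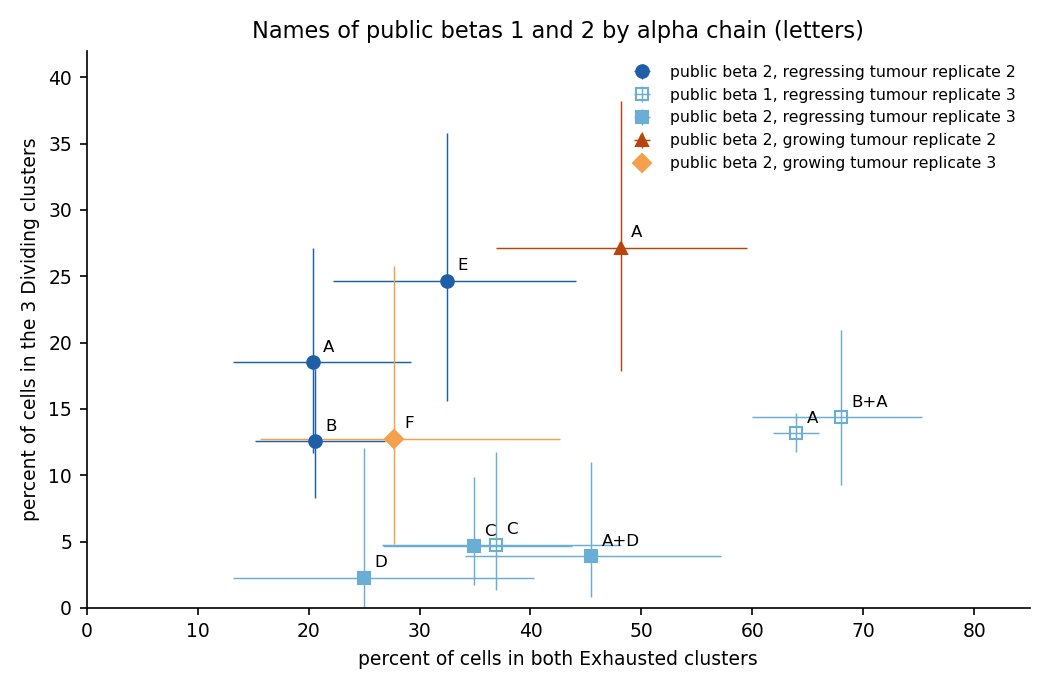
Percent of cells in both exhausted clusters (x axis) and in the 3 dividing clusters (y axis) for each name of public betas 1 (open) and 2 (filled) with 20 or more cells in a library, with exact 95% intervals and the letters of the alpha chains of that beta. Names of public beta 1 with alpha A sit at 64.0% and 68.0% exhausted, while its name with alpha C, at 36.9%, lies next to alpha C of public beta 2 at 34.9%.

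Beta chains of the classes were of like length. Public betas were 12 to 15 residues long, with a mean of 13.8 ± 1.09 over 9 chains, and private betas 10 to 16, with a mean of 13.9 ± 1.44 over 48 (SD over chains). A length of 14 was the most frequent in both, with 5 public and 18 private chains. The mean over the betas of a library was 13.5, 14.5, 13.6 and 14.4 residues for public and 13.8, 12.9, 14.1 and 14.3 for private betas. The difference was 0.225 ± 0.958 residues (SD, n = 4 libraries), with public higher in 2 of 4 (two-sided exact sign-flip p = 0.875, adjusted p = 0.875 over 10 measures). It was -0.237 without Reg3.

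Alpha chains paired with public betas were longer in every tumour. Their mean lengths were 14.9, 15.5, 14 and 15.2 residues in the 4 libraries, and those of alpha chains paired with private betas 13.8, 13.4, 13.75 and 13.4. The difference was 1.31 ± 0.827 residues (SD, n = 4), from 0.25 in Grow2 to 2.1 in Reg3. It was positive in 4 of 4 libraries, with an exact sign-flip p = 0.13, the smallest that 4 libraries allow (adjusted p = 0.417). The libraries are not independent here, since the public class repeats chains, such as the 16-residue alpha of public beta 7 in all 4.

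**Figure D3:**
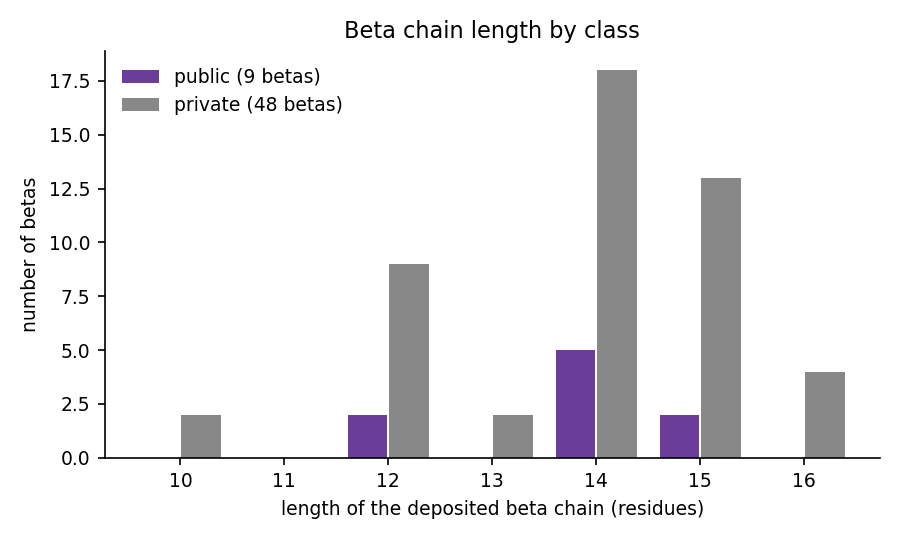
Number of public and private beta chains (y axis) by length in residues (x axis). Public chains lie between 12 and 15 residues, inside the private range of 10 to 16, and length 14 is the tallest bar of both classes.

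A larger share of public than of private chains lay in the authors' receptor similarity groups, a difference given without a test. These groups held 6 of 9 public betas (66.7%) and 13 of 48 private betas (27.1%). Membership did not always mean a relative among the named betas of these tumours. Public betas 1, 3 and 4 were the only such betas of Group2, Group4 and Group8, and private beta 31 the only one of Group10. Both classes met in Group1, with public betas 2 and 8 and 3 private betas, and in Group3, with public beta 6 and 2 private betas. The last 5 residues were the same in public betas 1, 2, 4 and 8 (44.4% of public betas), and 7 private betas (14.6%) shared that ending. Among all named betas, 5 pairs of chains were of equal length and 1 residue apart, each within 1 similarity group. Public beta 2 was 1 residue from private beta 1, the largest clone of Reg2, and from private beta 43. Public beta 6 was 1 residue from private beta 2, the largest clone of Grow2, and both were read with the same alpha chain. Private beta 2 was in turn 1 residue from private beta 20 of Reg2, and the last pair was private betas 7 and 27. With chains 1 residue apart counted as 1, cells of 15 betas, 5760 in all, counted as public.

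By transcriptional state, cells with public betas lay in exhausted clusters slightly more often than cells with private betas. Public beta 1 carried much of the mean difference. The 2 clusters named Exhausted held 39.8% of public and 38.3% of private cells in Reg2, 58.3% and 45.9% in Reg3, 54.4% and 49.5% in Grow2, and 44.4% and 43.7% in Grow3. Public was the higher class in 4 of 4 libraries, by 4.89 ± 5.36 percentage points (SD, n = 4, exact sign-flip p = 0.13, adjusted p = 0.417). Without public beta 1, the public cells of Reg3 were exhausted in 30.8%, below the private 45.9%. The mean difference over the libraries was then -1.95, with public still higher in 3 of 4. With public status set at 5 or more cells in 2 libraries, which moves public betas 1, 5 and 9 to the private class, it was -7.36.

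Cells with public betas lay in activation clusters less often. Initial Activation, Intermediate Activation and Highest Activated together held 39.0%, 23.7%, 21.3% and 18.3% of public cells and 44.7%, 36.9%, 24.1% and 32.6% of private cells. The difference was -9.02 ± 5.61 percentage points (SD, n = 4), with public lower in 4 of 4 libraries (exact sign-flip p = 0.13, adjusted p = 0.417). It was -2.43 without public beta 1, where the remaining public cells of Reg3 had 50.4% in these clusters against 36.9% of private cells. With the stricter public status it was 2.88.

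Of 13 clusters, 3 (23.1%) differed in 1 direction in all 4 libraries, and shares of clusters depend on each other because they share a total. Alternative Exhausted was higher in public cells, at 17.5%, 33.8%, 31.0% and 27.5% against 7.33%, 22.8%, 24.1% and 19.0% of private cells. Its mean difference was 9.15 ± 1.85 percentage points (SD, n = 4, exact sign-flip p = 0.13, adjusted p = 0.542 over 13 clusters). Without public beta 1 this was 2.89, higher in 3 of 4 libraries, with -14.1 in Reg3, and it turned to -1.12 with the stricter public status and to -1.51 without the largest beta of each library. Initial Activation was lower in public cells by 3.91 ± 2.48 percentage points, at 7.36% ± 4.39 against 11.3% ± 5.80. This difference turned to 0.873 with the stricter public status and to 0.0579 without the largest beta of each library. Dividing 1 was higher by 2.52 ± 4.05, with 8.51 in Grow3 and 0.0232 in Reg3, and its mean difference without Grow3 was 0.526. Activated Exhausted went the other way in 3 of 4 libraries, with 21.8% ± 3.33 of public and 26.1% ± 3.44 of private cells (exact sign-flip p = 0.25, adjusted p = 0.609).

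**Figure D4:**
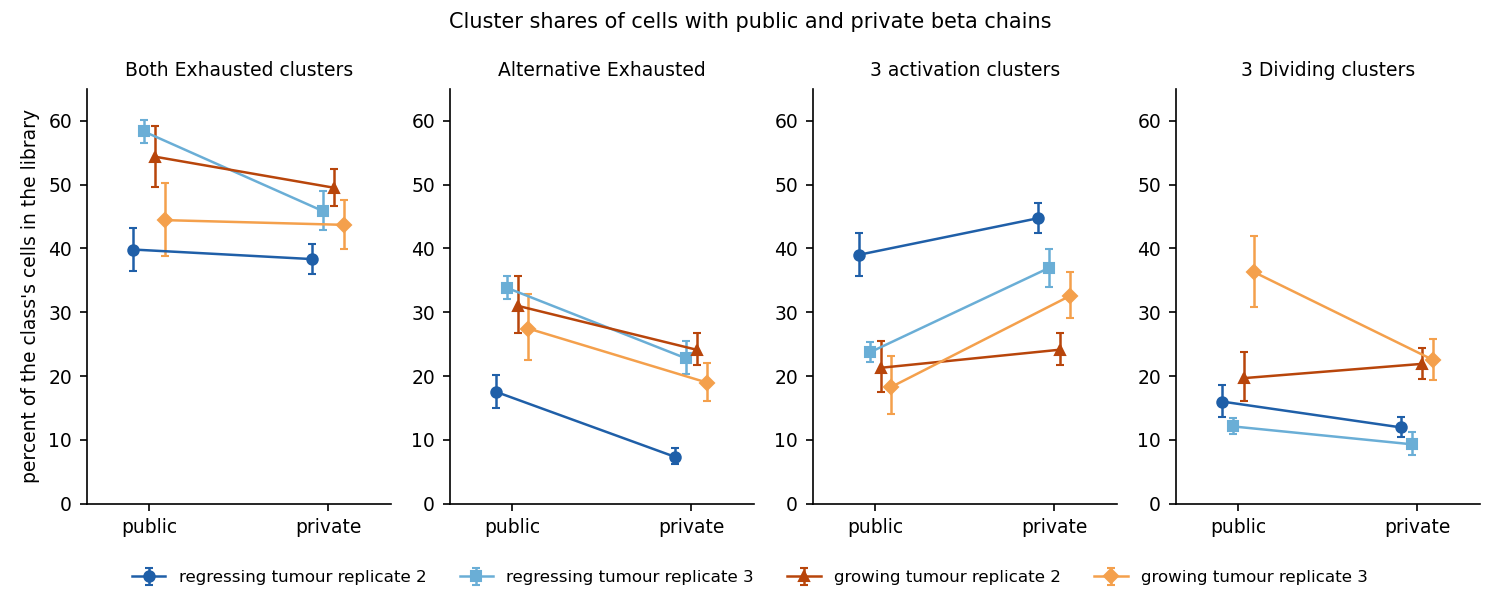
Percent of cells with public and private betas in both exhausted clusters, in Alternative Exhausted alone, in the 3 activation clusters and in the 3 dividing clusters (y axes), with 1 line for each tumour library and exact 95% intervals. Alternative Exhausted is higher for public cells in all 4 libraries, from 17.5% against 7.33% in Reg2 to 33.8% against 22.8% in Reg3.

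No other cluster differed in 1 direction in all 4 libraries. Highest Activated held 8.45% ± 5.78 of public and 8.17% ± 4.48 of private cells, and Intermediate Activation 9.77% ± 2.44 and 15.2% ± 4.46. The interferon-stimulated cluster, named for genes that interferon switches on, held 3.85% ± 2.22 and 4.38% ± 2.65 (difference -0.529 ± 0.892, exact sign-flip p = 0.375, adjusted p = 0.625 over 10 measures). Dividing 2 held 7.22% ± 3.43 and 6.23% ± 3.40, and Dividing 3 held 5.67% ± 2.64 and 4.58% ± 2.19. The Naive 1, Naive 2, Naive 3 and NKT-like clusters each averaged at most 0.116% of either class. In the remaining receptor-labelled cells of the same tumours, which carry no clonotype name, the Naive clusters together held 10.7% to 15.9%.

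Individual public betas spanned a wide range of states. Among public betas with 20 or more cells, the exhausted share ran from 22.9% (public beta 2) to 62.9% (public beta 4) in Reg2 and from 19.7% (public beta 7) to 63.3% (public beta 1) in Reg3. In Grow2 it ran from 48.1% (public beta 2) to 60.6% (public beta 4), and in Grow3 public betas 2 and 3 had 27.7% and 48.2%. Private betas spanned 4.49% to 57.7% in Reg2, 5.45% to 65.6% in Reg3, 6.38% to 61.7% in Grow2 and 20% to 73.0% in Grow3. The medians over betas were 40.4% public and 31.2% private in Reg2, 29.8% and 45.9% in Reg3, 53.5% and 48.6% in Grow2, and 37.9% and 48.1% in Grow3. Counted by chain instead of by cell, public was thus higher in 2 of 4 libraries.

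Public betas 2, 3, 4 and 6 had 20 or more cells in at least 2 tumours. With the alpha chains of a beta pooled, 3 of these 4 had higher Alternative Exhausted shares in growing tumours. Public beta 2 had 5.47% (interval 3.42 to 8.24) in Reg2, 12.1% (8.34 to 16.7) in Reg3, 32.1% (22.1 to 43.4) in Grow2 and 17.0% (7.65 to 30.8) in Grow3. Only its interval in Grow2 lay above both of the regressing tumours. Public beta 3 had 19% (11.8 to 28.1) in Reg2 and 29.7% (24.1 to 35.8) in Grow3, and public beta 6 had 2.94% (0.611 to 8.36) in Reg3 and 11.5% (5.86 to 19.6) in Grow2. Public beta 4 had 43.8% (33.3 to 54.7) in Reg2 and 37.7% (30.5 to 45.3) in Grow2. For betas 3, 4 and 6 the intervals of both tumours overlapped. Such pairs compare single libraries and pool names with different alpha chains, and no test was made. Cells of public beta 6 with alpha A alone had 2.94% in Reg3 and 3.77% in Grow2. Its cells with A and B, read in Grow2 only, had 20.9%. The cells of public beta 2 in Grow2 all carried alpha A alone, which had 4.63% in Reg2. In Reg3, cells of public beta 2 with A and D had 26.0% and those with C 1.55%. Private cells as a class also had their lowest Alternative Exhausted share in Reg2, at 7.33%, against 22.8% in Reg3, 24.1% in Grow2 and 19.0% in Grow3.

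**Figure D5:**
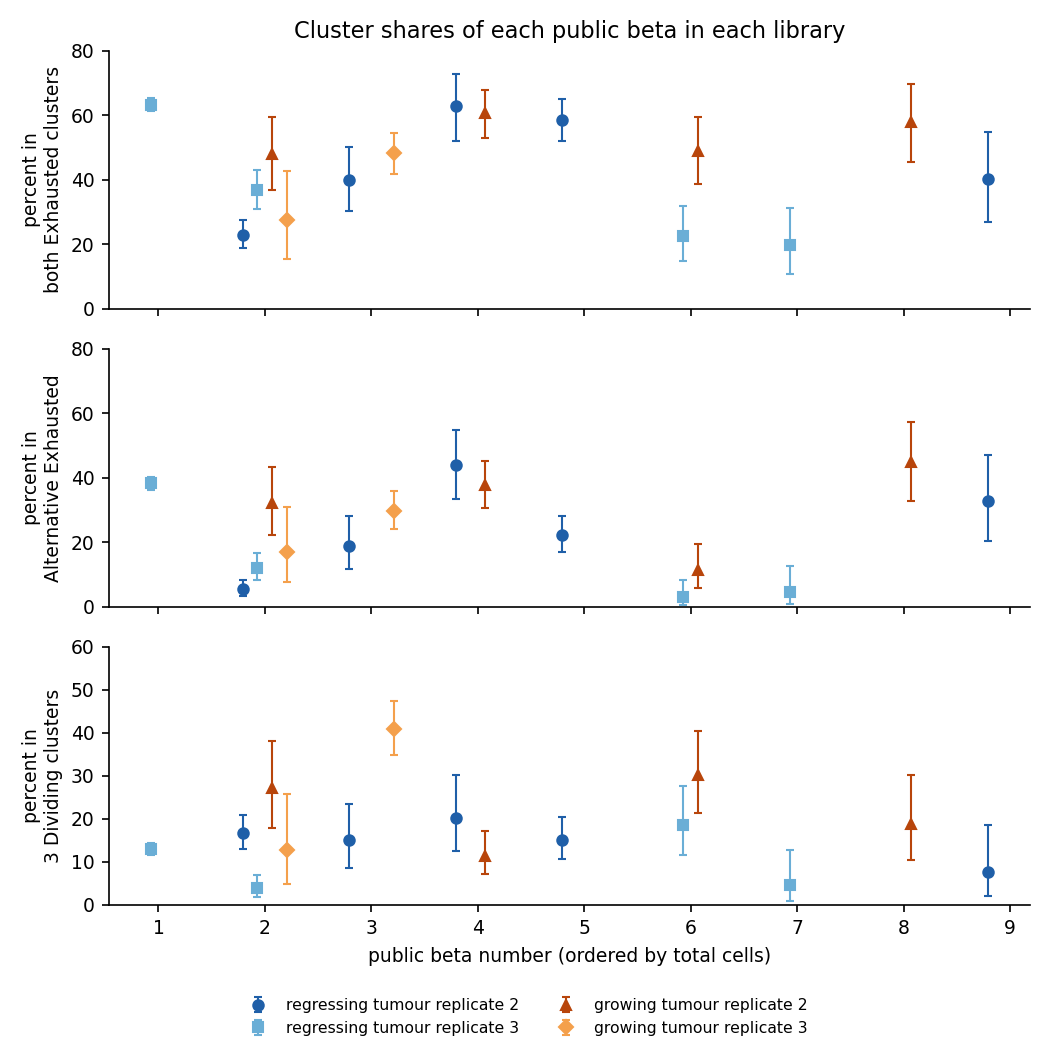
Percent of cells in both exhausted clusters, in Alternative Exhausted and in the 3 dividing clusters (y axes, top to bottom) for each public beta (x axis) in each library where it had 20 or more cells, with exact 95% intervals. Exhausted shares run from 19.7% for public beta 7 to 63.3% for public beta 1, both in Reg3, and the highest dividing share is 41.0% for public beta 3 in Grow3.

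Dividing cells did not separate the classes in 1 direction. The 3 Dividing clusters held 16.0%, 12.1%, 19.7% and 36.3% of public cells and 12.0%, 9.31%, 21.9% and 22.5% of private cells. Public was higher in 3 of 4 libraries, by 4.59 ± 6.69 percentage points (SD, n = 4, exact sign-flip p = 0.25, adjusted p = 0.625), and by 1.54 without Grow3. In Grow3, public beta 3 made up 81.4% of public cells and had 41.0% of its cells in dividing clusters (interval 34.8 to 47.4), against 15% (8.65 to 23.5) in Reg2. Within each class, dividing shares of growing and regressing tumours did not overlap. They were 28.0% ± 11.7 and 14.1% ± 2.75 for public cells, and 22.2% ± 0.423 and 10.6% ± 1.87 for private cells (SD, n = 2 each, exact permutation p = 0.33 for each class). Labelled cells without a clonotype name had dividing shares of 11.4% in Reg2, 11.3% in Reg3, 19.1% in Grow2 and 18.7% in Grow3. Activation and interferon-stimulated shares, G1 and G2M calls and median UMIs also did not overlap between the states in either class. For public G1 calls the gap was narrow, with 63.74% in Reg3 and 63.66% in Grow2. Exhausted shares, S calls and alpha chain lengths overlapped in both classes, and beta chain lengths in the public class only. With dividing shares, these are all the measures compared in this way. Each measure without overlap had an exact permutation p = 0.33, the smallest that 2 libraries against 2 allow. Cluster shares, and likewise phase calls, depend on each other, so these measures are not separate evidence.

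Cell-cycle phase, called by the authors from the expression of cycle genes, also differed mainly in Grow3. G1 calls made up 65.2%, 63.7%, 63.7% and 46.7% of public cells and 63.7%, 66.7%, 61.9% and 63.4% of private cells. The mean difference was -4.09 ± 8.66 percentage points (SD, n = 4, exact sign-flip p = 0.625, adjusted p = 0.694), and 0.107 without Grow3. S calls made up 28.2% ± 5.43 of public and 25.6% ± 1.65 of private cells (exact sign-flip p = 0.625, adjusted p = 0.694), with 36.3% against 23.9% in Grow3, and the difference without Grow3 was -0.645. G2M calls made up 12.0% ± 3.37 and 10.5% ± 2.60 (exact sign-flip p = 0.50, adjusted p = 0.694).

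Cells with public betas in Grow3 also had more UMIs, with medians of 13594 against 11288. In Reg2, Reg3 and Grow2 the medians were 5549 against 5116, 7534 against 7067, and 7647 against 8094. Over the 4 libraries the difference was 690 ± 1158 UMIs (SD, n = 4, exact sign-flip p = 0.375, adjusted p = 0.625). The part of UMIs in the phase calls was not tested, since cells could not be thinned to 1 number of UMIs without an expression matrix.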

How the data were processed

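Per the labels' protocols, CD8 T cells were sorted from digested A223 tumours, and 5′ libraries were divided for expression and receptor sequencing. Per the submitters' processing notes, the authors used Cell Ranger. Its version, the genome build and any removal of doublets were not found there, and no doublets were called. The deposited per-cell table gives, per the file headers, the count of UMIs and of genes of a cell. The deposited percent of mitochondrial UMIs and the S and G2M score were not needed for a result. Phase, cluster, clonotype and receptor similarity group are labels of the authors. All cells had at least 501 genes and at most 9.83% mitochondrial UMIs, and no cell was left out on quality.

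Cells of the 4 tumour libraries of the 5′ kit with a clonotype other than NA, Other or Top_Spleen were kept, and the last chain was taken as beta. Names of 3 chains (12 of 71) were read as 2 alpha chains and 1 beta. Shares were taken over the cells of a class in a library, and lengths over its distinct chains. The library was the replicate. Classes were compared within libraries by two-sided exact sign-flip tests, and tumour states by exact permutation, with Benjamini-Hochberg adjustment over 10 measures or 13 clusters. The tests were tried on simulated data. Every public beta and the private beta with most cells in each library were named, and other betas were named after their values were seen. The members, lists and groups of clusters were chosen with earlier results of these data known. Chain sequences are not printed. Python 3.11.15, pandas 2.3.3, numpy 2.4.6 and scipy 1.17.1 were used. Alternatives changed the strictness and unit of public status, left out names of 3 chains, the largest betas or a library, or weighted chains otherwise. Variant tables of cultured A223 cells were not used here.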

Additional observations from a re-analysis of the deposited data

Results flagged for a closer look

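Grow3 stood apart from the other 3 libraries in the Dividing 1 cluster, with a public minus private difference of 8.51 percentage points where the others lay between 0.0232 and 1.47. Public beta 3 made up 81.4% of the public cells of that library. In Naive 2, Grow2 stood apart with a difference of 0.231 percentage points, which is 1 cell. By the nominal rate of the rule that flagged them, which was not measured here, chance sets apart about 1 in 20 such groups. For Highest Activated the public minus private difference was positive in both regressing tumours (1.28 and 4.42 percentage points) and negative in both growing ones (-3.07 and -1.50), a gap of -5.14 between the means of the states. This gap was not tested.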

How the results depend on the processing

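The longer alpha chains of public betas kept their sign in all 12 alternatives, from 0.78 residues (without public betas 1 and 2) to 1.66 (without Grow2). The mean Dividing 1 difference also kept its sign in all 12, from 0.526 to 4.03 percentage points. Single libraries did not always keep it: without public betas 1 and 2 the mean was 2.15, with public higher in 1 of 4 libraries. The other public minus private differences turned in some. With public status set at 5 or more cells in 2 libraries they were -7.36 (exhausted), 2.88 (activation), 1.28 (interferon-stimulated), -1.12 (Alternative Exhausted) and 0.873 (Initial Activation) percentage points. Without the largest beta of each library they were -3.19 (exhausted), -1.35 (dividing), 3.75 (activation), 0.808 (interferon-stimulated), 0.323 (G1), -1.05 (G2M), -1.51 (Alternative Exhausted) and 0.0579 (Initial Activation) percentage points, and -199.5 UMIs. With chains weighted equally, S was -0.541 and interferon-stimulated 0.485. Without public beta 1, chosen after seeing the data, exhausted was -1.95 and interferon-stimulated 0.816. Without public betas 1 and 2, interferon-stimulated was 0.515 and beta length -0.134. With single libraries left out, G1 ran from -6.05 to 0.107, S from -0.645 to 4.59 and beta length from -0.237 to 0.476. Clusters of 1 direction numbered 1 with the stricter status, 6 with chains 1 residue apart joined, 0 without the largest betas, 1 without public beta 1, and 3 to 6 with a library left out, 6 being without Grow2. The difference in public share between states was 12.2 percentage points with the stricter status. With replicate numbers as a block (replicate block) it was -23.8, with an exact sign-flip p of 0.50 over 2 pairs. Deviations of same-numbered libraries correlated at -0.542 and of crossed numbers at 0.542, mirror values that 2 libraries a state force, and neither block could make a call, so both count 0 calls. The cause of these changes was not tested beyond the betas and libraries named. The libraries are few, so no test here could pass 0.05, and in the smallest class, the 306 public cells of Grow3, 0 cells would allow a share of up to 0.98% by the 3-count limit.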
